A study of Mus musculus with 6 samples.

Results

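The transcripts described here come from 9 genes of the helper T cell programme, namely Il2, Ifng, Ifngas1, Il3, Il4, Il10, Il13, Csf1 and Csf2. They were taken by gene symbol from the 55487 genes of the count files, and were chosen with earlier results of these data known. Of these 9 genes, 5 (Il2, Ifng, Ifngas1, Csf1 and Csf2) were also among the 13564 genes of the deposited normalized table, and the other 4 were found in the count files only. The study sequenced the RNA of activated naive CD4 T cells from Foxo1TKO mice (n = 3 libraries) and from Foxo1Ctrl mice (n = 3 libraries), both C57BL/6 and, per the methods, carrying a Foxp3-GFP reporter and used at 3 months of age unless stated otherwise. Foxo1TKO mice carry CD4cre and Foxo1fl/fl, so that Foxo1 is deleted in every cell that has passed through the CD4-expressing stage in the thymus, CD8 T cells included. Naive CD4 T cells of both genotypes were sorted from lymph nodes as CD44-/low Foxp3- cells. Per the labels, 50000 of them were cultured for 4 days with anti-CD3 antibody 145-2C11 at 0.1 µg/ml and 250000 splenocytes of C57BL/6 CD3eKO mice (the methods state a larger number of T cells). CD3eKO splenocytes hold no T cells of their own but do hold B cells, myeloid cells and NK cells, and no source used here states whether T cells were separated from them before RNA extraction. In such bulk RNA, fewer cells of a type and less RNA per cell cannot be told apart. Nothing states that the libraries came from separate mice, so p-values measure the spread between these samples.

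Helper T cells act on other cells through secreted cytokines that are made after stimulation of the T cell receptor, and the mixture made differs between helper lineages. IL-2 drives T cell proliferation and is the cytokine classically made by newly activated naive cells. IFN-γ is the signature product of Th1 cells, IL-4 and IL-13 are made by Th2 cells, IL-10 restrains inflammation, and IL-3, GM-CSF (encoded by Csf2) and M-CSF (encoded by Csf1) act mainly on myeloid cells and their precursors. Ifngas1, also known as NeST, is a long non-coding RNA encoded beside Ifng and transcribed from the opposite strand, and it has been linked to Ifng expression in T cells. Foxo1 is a forkhead transcription factor that keeps naive T cells quiescent.

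Library totals ran from 14783853 to 19675407 counts. Foxo1 was 21.8-fold lower in Foxo1TKO than in Foxo1Ctrl libraries (log2 fold change -4.45, SE 0.36, edgeR quasi-likelihood test with Benjamini-Hochberg adjustment, adjusted p = 0.000195). T cell markers were well detected in all 6 libraries, the 7 listed (4 chains of the CD3 complex, Cd4, Cd5 and Cd28) summing to between 79911 and 83319 normalized counts in Foxo1TKO and between 102682 and 124404 in Foxo1Ctrl. Over all 13691 genes tested, 3144 (23.0%) passed the test between genotypes (adjusted p below 0.05, fold change above 1.5), 1525 of them (11.1%) being higher and 1619 (11.8%) lower in Foxo1TKO. The genotypes separated along the first principal component (66.4% of the variance). Along the second (17.1%), Foxo1TKO replicate 1 and Foxo1Ctrl replicates 1 and 3 lay on one side and the other 3 libraries on the other side, whichever their genotype.

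Of the 9 helper cytokine transcripts, 5 reached 10 counts in 3 or more libraries and were tested, and 3 of these 5 passed the test, against the 23.0% of all genes tested. Because the 9 were chosen with earlier results of these data known, this contrast cannot test whether such genes changed more often than others. Csf2 rose in Foxo1TKO whereas Il2 and Ifngas1 fell. Ifng and Csf1 did not pass. The values of Il2, Ifng, Ifngas1 and Csf2 did not overlap between genotypes, 2 of them being lower and 2 higher in Foxo1TKO. The same held for 5841 (42.7%) of the genes tested, of which 2938 (21.5%) were higher and 2903 (21.2%) lower. Il4, Il10 and Il13 were near the limit of detection and Il3 was at 0 in every library.

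**Figure D1:**
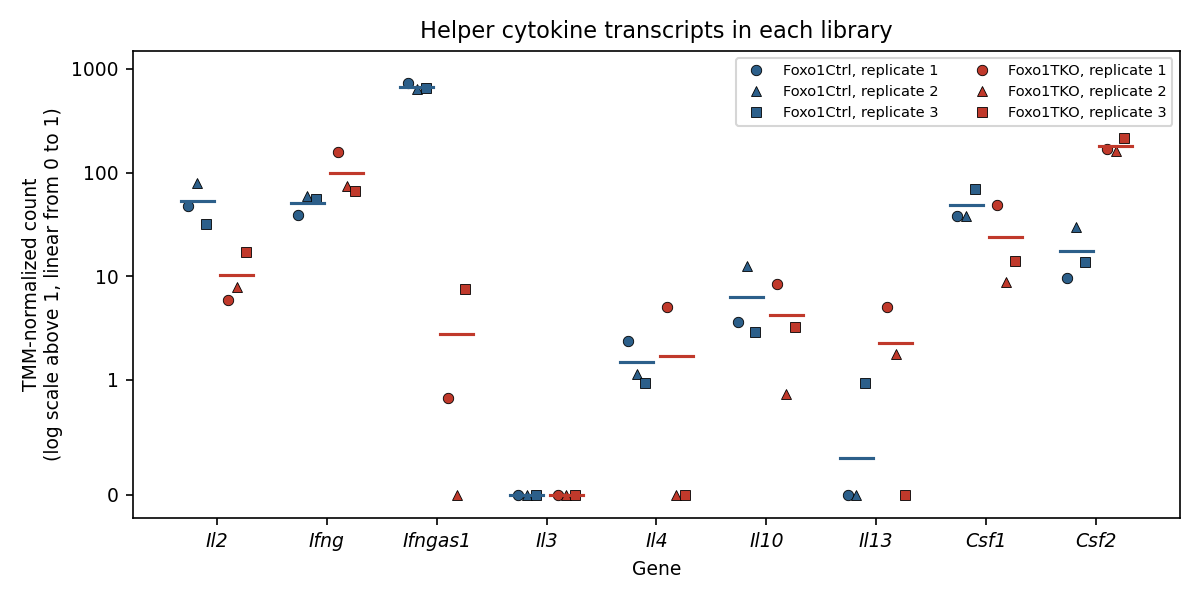
TMM-normalized counts (y axis, log scale above 1 and linear below it) of the 9 genes (x axis) in each of the 6 libraries, with a line at the mean of each genotype (n = 3). Ifngas1 lies at 642 to 732 in the Foxo1Ctrl libraries and at 0 to 7.51 in the Foxo1TKO libraries, Csf2 shows the opposite order, and Il3, Il4, Il10 and Il13 lie near 0.

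The sequences just upstream of the start sites are given for the 3 genes that passed the test and for Ifng, the neighbour of Ifngas1, so that genes with opposite changes can be read side by side. They are 250 bases long, 5′ to 3′ on the strand of the gene, from RefSeq on GRCm38.p6, and end at the base before the RefSeq start. Capitals mark matches, on either strand, to 6 motifs that were searched: the NFAT core (letters GGAAA), AP-1 (letters TGANTCA), forkhead (letters GTAAACA), the TATA box (letters TATAAA), the T-box motif (letters TCACAC) and the GATA motif (letters AGATAA). Il2 (chr3:37125955-37126204, minus strand), Ifng (chr10:118440796-118441045, plus strand), Ifngas1 (chr10:118556526-118556775, minus strand) and Csf2 (chr11:54249900-54250149, minus strand) read as follows.
Il2: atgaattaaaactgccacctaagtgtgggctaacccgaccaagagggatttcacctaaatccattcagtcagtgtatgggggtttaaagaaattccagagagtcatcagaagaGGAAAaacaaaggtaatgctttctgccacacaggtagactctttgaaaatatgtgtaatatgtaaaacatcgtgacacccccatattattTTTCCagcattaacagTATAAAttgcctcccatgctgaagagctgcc
Ifng: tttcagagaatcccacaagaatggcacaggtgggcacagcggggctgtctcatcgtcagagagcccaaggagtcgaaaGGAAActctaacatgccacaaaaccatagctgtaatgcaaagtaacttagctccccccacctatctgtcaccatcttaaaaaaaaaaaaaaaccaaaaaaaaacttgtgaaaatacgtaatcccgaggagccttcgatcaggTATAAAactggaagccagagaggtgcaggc
Ifngas1: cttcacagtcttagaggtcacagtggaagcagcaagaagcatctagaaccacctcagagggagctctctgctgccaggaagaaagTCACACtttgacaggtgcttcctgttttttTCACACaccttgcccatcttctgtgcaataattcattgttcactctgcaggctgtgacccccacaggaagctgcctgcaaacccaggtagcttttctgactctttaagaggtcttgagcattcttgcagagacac
Csf2: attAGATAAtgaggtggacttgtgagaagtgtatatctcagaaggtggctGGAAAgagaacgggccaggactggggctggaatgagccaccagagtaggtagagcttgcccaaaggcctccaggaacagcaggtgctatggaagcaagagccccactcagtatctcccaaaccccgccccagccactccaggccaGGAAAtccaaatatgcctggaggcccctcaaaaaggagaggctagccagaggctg

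Il2 and Ifng each had a TATA box, starting 31 bases before the start in Il2 and 30 in Ifng, which 13.6% of the 32851 RefSeq windows (250 bases before to 50 after a start) held. NFAT cores, present in 61.3% of windows, stood in the Il2 sequence at 137 and 47 bases before the start, in Ifng at 172 and in Csf2 at 200 and 55. The Ifngas1 sequence held neither of these, and instead had the T-box motif at 165 and at 135 bases before its start, a motif in 14.5% of windows. Csf2 alone of these 4 held the GATA motif (11.2% of windows), at 247 bases before its start, and its RefSeq start lies 232 bases upstream of the GENCODE start. None of the 4 held the AP-1 motif (7.81% of windows) or the forkhead motif (3.65% of windows), which says only that these letters are not in these windows. A window was found for 8 of the 9 genes. Il10 had none.

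Csf2 (ENSMUSG00000018916, GRCm38 chr11:54247271-54249667, minus strand, protein coding) encodes GM-CSF, which expands and activates granulocytes, macrophages and dendritic cells. It had 169.0, 161 and 214 normalized counts in Foxo1TKO replicates 1 to 3 and 9.54, 29.7 and 13.6 in Foxo1Ctrl replicates 1 to 3. The lowest Foxo1TKO library was thus well above the highest Foxo1Ctrl library. The mean was 181 ± 28.2 (SD, n = 3) against 17.6 ± 10.7, a 9.81-fold rise (95% interval 5.03 to 19.1, log2 fold change 3.29, SE 0.42, edgeR quasi-likelihood test with Benjamini-Hochberg adjustment, adjusted p = 0.00137). By log2 fold change Csf2 ranked 193 from the top of 13691 genes. With each library left out in turn the log2 fold change ran from 3.01 to 3.86 and the call held. The exons of Csf2 overlap Gm12223 on the opposite strand, which had 1 count in all 6 libraries together.

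Il2 (ENSMUSG00000027720, chr3:37120523-37125959, minus strand, protein coding) showed the opposite order at a lower level. It had 5.92, 7.90 and 17.2 normalized counts in Foxo1TKO and 47.7, 80.1 and 32.0 in Foxo1Ctrl, in replicate order. All 3 Foxo1TKO libraries lay below the 3 Foxo1Ctrl libraries, and the closest pair were Foxo1TKO replicate 3 and Foxo1Ctrl replicate 3. The mean was 10.3 ± 6.01 (SD, n = 3) against 53.2 ± 24.5, a 4.86-fold fall (95% interval 2.12 to 11.1, log2 fold change -2.28, SE 0.52, edgeR quasi-likelihood test, adjusted p = 0.0160). These levels rest on 32 counts in the Foxo1TKO libraries and 143 in the Foxo1Ctrl libraries. Without Foxo1TKO replicate 2 the log2 fold change was -2.14 and the call was lost (edgeR, adjusted p = 0.0717).

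Ifngas1 (ENSMUSG00000112230, chr10:118502035-118556525, minus strand, lincRNA) had the widest gap of the 9. It stood at 732, 642 and 654 normalized counts in Foxo1Ctrl and at 0.845, 0 and 7.51 in Foxo1TKO, in replicate order. In raw counts this was 614, 561 and 675 against 1, 0 and 7, so that 7 of the 8 Foxo1TKO counts came from replicate 3. The mean was 2.79 ± 4.12 (SD, n = 3) in Foxo1TKO against 676 ± 49.1 in Foxo1Ctrl, a 192-fold fall (95% interval 71.6 to 516, log2 fold change -7.59, SE 0.62, edgeR quasi-likelihood test, adjusted p = 0.000208). Only 4 of the 13691 genes tested had a more negative log2 fold change. The size of a fall to so few counts depends on the method, and ran from -6.56 to -8.68 on the log2 scale over the other tests, scalings and filters. With each library left out in turn it ran from -8.90 (without Foxo1TKO replicate 3) to -7.10, and the call held. No exon of another gene overlaps those of Ifngas1.

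Ifng (ENSMUSG00000055170, chr10:118441046-118445892, plus strand, protein coding) encodes IFN-γ, the main activator of macrophages made by T cells and NK cells. Its span is separated from that of Ifngas1 by 56.1 kb, and it did not fall with it. It had 159.7, 73.7 and 66.5 normalized counts in Foxo1TKO and 39.3, 59.5 and 55.2 in Foxo1Ctrl, in replicate order. The genotypes did not overlap but came close, at 66.5 against 59.5, and Foxo1TKO replicate 1 stood apart from the other Foxo1TKO libraries. The log2 fold change was 0.95 (SE 0.40, 95% interval 0.03 to 1.87), which did not pass the test (edgeR quasi-likelihood test, adjusted p = 0.126). Without Foxo1TKO replicate 1 it was 0.43 (adjusted p = 0.408, edgeR). Among the 3 libraries on the side of the second principal component with that replicate, the Foxo1TKO level was 3.38 times that of Foxo1Ctrl, and among the other 3 it was 1.18 times. Both ratios rest on only 1 library of one genotype. With that side as a term of the fit the log2 fold change was 1.02 and passed (edgeR, adjusted p = 0.0452). The sides were drawn from these same data. Foxo1TKO replicate 2 lay near the boundary between them, at -3.52 on that component. The others on its side lay at -38.5 (Foxo1TKO replicate 3) and -53.8 (Foxo1Ctrl replicate 2). A same-strand entry of the annotation, Gm49751, lies over Ifng exons and had under 2 normalized counts per library.

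Csf1 (ENSMUSG00000014599, chr3:107741048-107760469, minus strand, protein coding) encodes M-CSF, which supports macrophage survival. It had 48.2, 8.77 and 13.95 normalized counts in Foxo1TKO and 38.2, 37.7 and 68.8 in Foxo1Ctrl, in replicate order. Foxo1TKO replicate 1 lay within the range of Foxo1Ctrl whereas the other 2 lay below it. The log2 fold change was -0.99 (SE 0.61, 95% interval -2.40 to 0.42, edgeR, adjusted p = 0.286). Without Foxo1TKO replicate 1 it was -2.02 and passed the test (edgeR, adjusted p = 0.0264). Within the 2 sides of the second principal component, Csf1 was 1.11-fold and 3.32-fold lower in Foxo1TKO, against 6.73-fold and 6.39-fold for Il2, and Csf2 was 14.6-fold and 6.31-fold higher. Each side held only 1 library of one genotype, and the sides were drawn from these same data. The transcript length that RSEM assigned to Csf1 varied from 2306 to 2922 bases between libraries, so the isoforms it was counted on varied too.

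**Figure D2:**
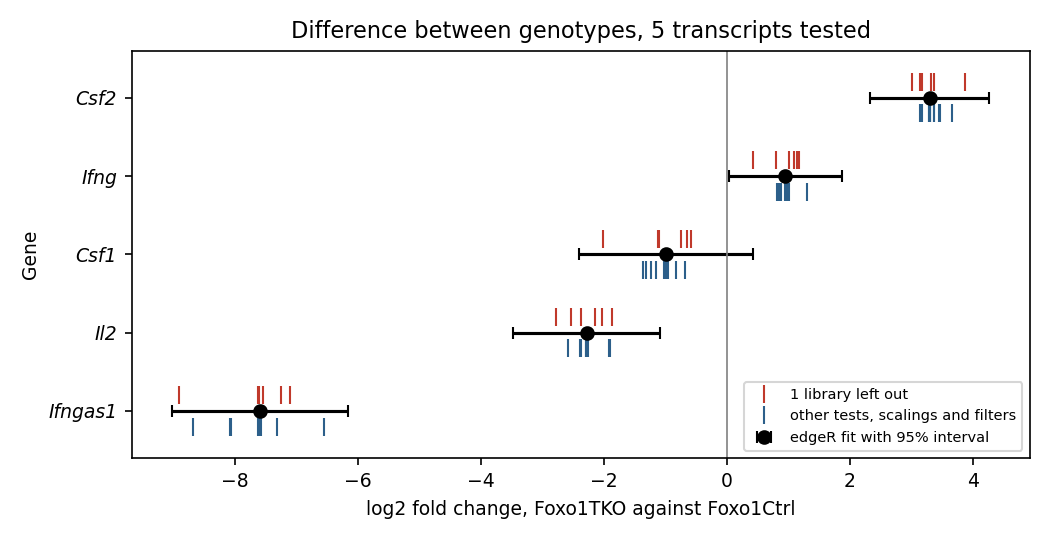
Log2 fold change of Foxo1TKO against Foxo1Ctrl (x axis) of the 5 genes tested, with its 95% interval (black), the values with 1 library left out (red ticks) and those under other tests, scalings, filters and terms (blue ticks). Every value of Csf2 lies between 3.01 and 3.86 and every value of Il2 and Ifngas1 at or below -1.86, whereas the lower bound of Ifng is 0.03 and the upper bound of Csf1 is 0.42.

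The 4 remaining transcripts were too scarce to be tested. Il10 (ENSMUSG00000016529, chr1:131019845-131024974) had 10, 1 and 3 raw counts in Foxo1TKO and 3, 11 and 3 in Foxo1Ctrl. The Th2 cytokine Il4 (ENSMUSG00000000869, chr11:53602982-53618669) had 6, 0 and 0 raw counts in Foxo1TKO and 2, 1 and 1 in Foxo1Ctrl. Its neighbour Il13 (ENSMUSG00000020383, chr11:53631324-53634702), 12.7 kb away, had 6, 2 and 0 against 0, 0 and 1. The genotypes overlapped for all 3 of these genes, and a difference was not detectable at this depth. Pooled over each genotype, Il13 came to 0.145 CPM (counts scaled to the library totals) in Foxo1TKO (exact 95% Poisson interval 0.0626 to 0.286) and 0.0198 in Foxo1Ctrl (0.000502 to 0.111), intervals that overlap and that cover counting error only. Il3 (ENSMUSG00000018914, chr11:54265303-54267277) was at 0 in all 6 libraries. The exact 95% Poisson intervals reached up to 0.0669 CPM over the Foxo1TKO libraries and 0.0732 over the Foxo1Ctrl libraries. Csf2, whose span is 15.6 kb from that of Il3 on the same strand, was by contrast among the better detected of the 9.

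Foxo1TKO replicate 1 was the highest Foxo1TKO library for 5 of the 8 transcripts detected in that genotype (Ifng, Il4, Il10, Il13 and Csf1) and replicate 3 for the other 3 (Il2, Ifngas1 and Csf2). In replicate 1 the Th1 factor Tbx21 also stood higher, at 614 normalized counts against 170 and 89.1 in the other Foxo1TKO libraries. The same order was not particular to Tbx21. It was seen for Stat6 (1455 against 476 and 367), Junb (1437 against 234 and 174) and Socs1 (1379 against 410 and 327). Ikzf2 went the other way (13485.4 against 19518.5 and 24848.5). In Foxo1Ctrl, Tbx21 stood at 273 and 242 in replicates 1 and 3 and at 106 in replicate 2. Fits without Foxo1TKO replicate 1 were made for Ifng and Csf1, and its part in the values of Il4, Il10 and Il13 was not tested.

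Levels were compared between genes per length, in TPM. In Foxo1Ctrl the order was led by Ifngas1 (44.8 ± 7.09 TPM, SD, n = 3), followed by Il2 (3.38 ± 1.20), Ifng (3.13 ± 0.53), Csf2 (1.71 ± 0.84) and Csf1 (1.31 ± 0.44). The range of Ifngas1 was clear of all others, whereas Il2 and Ifng, Ifng and Csf2, and Csf2 and Csf1 overlapped in their ranges. In Foxo1TKO the order was led by Csf2 (18.9 ± 2.11 TPM), then Ifng (6.58 ± 3.99), and these ranges overlapped neither each other nor that of Il2 (0.69 ± 0.36). From Il2 down, with Csf1 at 0.67 ± 0.67 TPM, the ranges of neighbours overlapped. The place of Ifngas1 thus went from first in Foxo1Ctrl to seventh in Foxo1TKO, at 0.18 ± 0.26 TPM.

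**Figure D3:**
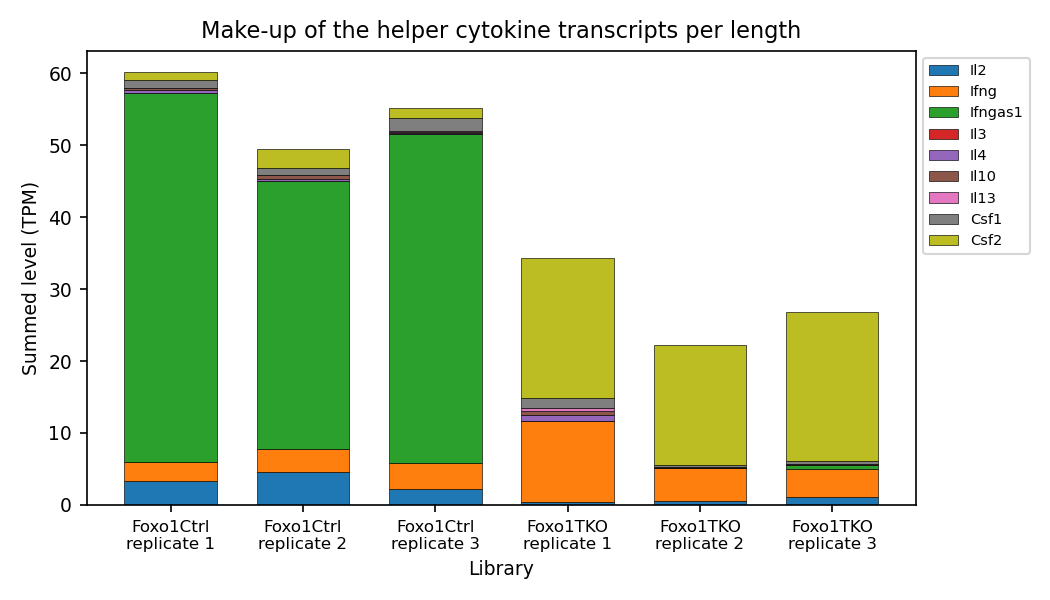
Summed level of the 9 transcripts per length (y axis, TPM, from 0) in each library (x axis), divided by gene. Most of each Foxo1Ctrl bar is Ifngas1 (75.4% to 85.4%) and most of each Foxo1TKO bar is Csf2 (56.6% to 77.5%).

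As a share of the summed TPM of the 9 transcripts, Ifngas1 made up 75.4% to 85.4% in Foxo1Ctrl and 0% to 1.79% in Foxo1TKO. Csf2 went from between 1.70% and 5.34% in Foxo1Ctrl to between 56.6% and 77.5% in Foxo1TKO. Without the non-coding Ifngas1, the 8 coding transcripts summed to 34.2, 22.2 and 26.4 TPM in Foxo1TKO and to 8.80, 12.2 and 9.48 TPM in Foxo1Ctrl, which did not overlap. Csf2 alone gave 19.4, 16.6 and 20.8 TPM of the Foxo1TKO sums and 1.02, 2.64 and 1.46 TPM of the Foxo1Ctrl sums. Il2 went the other way, so the sums do not show a rise of the coding transcripts as a group. The ratio of Ifngas1 to Ifng in TPM was 19.97, 11.6 and 12.7 in the Foxo1Ctrl libraries and 0.00537, 0 and 0.122 in the Foxo1TKO libraries. The ratio of Ifng to Il2 was 0.769, 0.70 and 1.63 in Foxo1Ctrl against 25.4, 8.57 and 3.57 in Foxo1TKO. In Foxo1TKO this ratio was above that of every Foxo1Ctrl library, with an SD between replicates nearly as large as its mean (12.5 ± 11.4).

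Other T cell cytokines moved in both directions. Of 25 listed, 17 were tested, 6 rose and 4 fell (median log2 fold change 0.07, against 0.01 over all genes tested). The shares over all genes tested were 11.1% higher and 11.8% lower. The largest rises were of Spp1 (osteopontin, log2 fold change 3.88, SE 0.39), Tnfsf11 (RANKL, 2.92, SE 0.31), Tgfb3 (2.14, SE 0.64) and Tnf (1.16, SE 0.27), with adjusted p from edgeR of 0.000493, 0.000687, 0.0455 and 0.0170. The others were Lta (1.07) and Il22 (1.02), and the call of Il22 (adjusted p = 0.0495) was lost without any one of the 6 libraries (0.0711 to 0.154, edgeR). Tgfb3 and Lta each lost the call in 5 of the 6 fits with 1 library left out and Tnf in 2. Those that fell were Il21 (-3.61, SE 0.67), a cytokine that helps B cells, Il16 (-1.72, SE 0.32), Ltb (-1.41, SE 0.20) and Ebi3 (-1.31, SE 0.20), with edgeR adjusted p between 0.00242 and 0.00721. Il21, like Il2, was low in every Foxo1TKO library, at 0.845, 5.26 and 0 normalized counts against 38.2, 37.7 and 34.9. Without Foxo1TKO replicate 2 its log2 fold change was -4.66, and over the other tests, scalings and filters it ran from -4.57 to -2.96. The Th2 cytokine Il5, whose span lies 86.1 kb from that of Il13, was not tested for lack of counts. It had 17.7, 5.26 and 20.4 normalized counts in Foxo1TKO and 0 in every Foxo1Ctrl library. The pooled Foxo1TKO level (21, 6 and 19 raw counts) was 14.02 times the level of 3 counts over the Foxo1Ctrl group. That ratio leaves out counting error and the spread between replicates, so it is not a lower bound on the fold change. Il9, Il24 and Il31 were at 0 in all 6 libraries.

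Most receptor chains for the 9 products, like most genes tested, did not pass the test. Of 14 listed, 11 were tested, none rose and 2 fell (median log2 fold change -0.06). Over all genes tested, 11.1% rose and 11.8% fell. Ifngr1, the ligand-binding chain of the IFN-γ receptor, fell with a log2 fold change of -3.49 (SE 0.17, edgeR, adjusted p = 3.42e-05), from between 43490.1 and 53593 normalized counts in Foxo1Ctrl to between 3865 and 4590.1 in Foxo1TKO. Its partner Ifngr2 did not pass (0.30, SE 0.30, adjusted p = 0.520, edgeR). Il4ra, shared by the IL-4 and IL-13 receptors, fell by 1.20 on the log2 scale (SE 0.27, edgeR, adjusted p = 0.0163), a call lost in 3 of the 6 fits with 1 library left out. The chains for IL-2, Il2ra, Il2rb and Il2rg, had log2 fold changes of -0.02, -0.53 and -0.63 and did not pass. The GM-CSF chains Csf2ra (0.65) and Csf2rb (-0.87) did not pass either, and Csf2rb stood at only 5.92 to 26.2 normalized counts. Il10ra missed the threshold (1.20, SE 0.38, edgeR, adjusted p = 0.0526). Csf1r, the receptor for M-CSF, had at most 3.38 normalized counts in any library.

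Genes that signalling from these receptors is known to induce were lower more often than higher. Of 22 listed, 18 were tested, 10 fell and 2 rose (median log2 fold change -1.13, against 0.01 over all genes tested). Of all genes tested, 11.8% fell and 11.1% rose. The falls with the largest log2 fold change were Socs3 (-5.36, SE 0.44), a feedback inhibitor of cytokine signalling, Pim1 (-3.06, SE 0.26), a kinase induced by STAT factors, and Gbp2 and Socs2 (both -2.58, SE 0.18 and 0.31), with edgeR adjusted p of 0.000210, 0.000227, 0.000115 and 0.00112. Gbp2 belongs to the IFN-γ-induced GTPases, of which Gbp3 (-1.72), Gbp5 (-1.47), Igtp (-1.36) and Irgm1 (-1.84) fell as well, as did Bcl2 (-1.04). Of these, Gbp5 lost its call in 1 of the 6 fits with 1 library left out. Irf1, Socs1 and Ciita, 3 other targets of IFN-γ, did not pass (-0.34, 0.34 and 0.09). Cish, a STAT5 target, rose (1.18, SE 0.35, edgeR, adjusted p = 0.0450), as did Lta, but the calls of Cish and Lta were each lost in 5 of the 6 fits that left out 1 library.

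**Figure D4:**
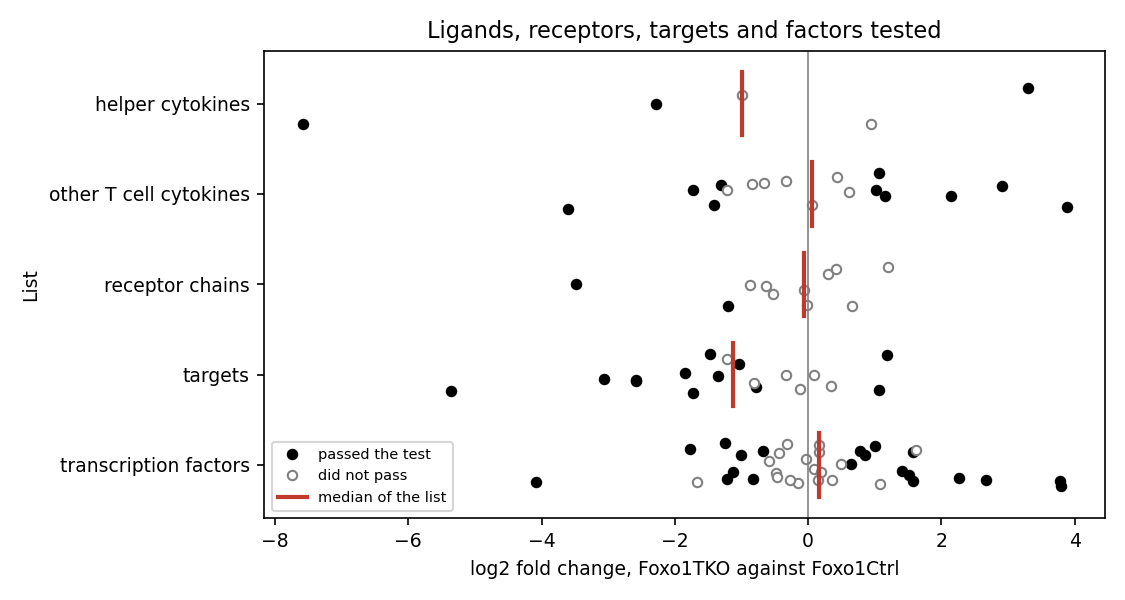
Log2 fold change of Foxo1TKO against Foxo1Ctrl (x axis) for each gene tested in the 5 lists (y axis, points spread vertically for legibility), filled where the test was passed, with the median of each list in red. Targets have a median of -1.13 while the medians of other cytokines, receptor chains and transcription factors lie at 0.07, -0.06 and 0.16.

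Transcription factors known to act on these genes were also followed. Of 40 listed, 38 were tested, 12 rose and 8 fell (median log2 fold change 0.16), beside 11.1% and 11.8% of all genes tested. Among the largest rises were those of Zeb2 (3.80, SE 0.27), Ikzf2 (2.68, SE 0.35) and Eomes (2.26, SE 0.22), a T-box factor known to drive Ifng, with edgeR adjusted p between 0.000128 and 0.00157. The largest falls were of Prdm1 (-4.08, SE 0.52), a repressor of Il2, Satb1 (-1.77, SE 0.16), Batf (-1.25, SE 0.17) and Runx3 (-1.21, SE 0.21), with edgeR adjusted p between 0.000357 and 0.00540. Without Foxo1TKO replicate 1 the log2 fold change of Prdm1 was -4.78. The lineage factors of Th1 and Th2 cells, Tbx21 (0.49, SE 0.67) and Gata3 (-0.15, SE 0.40), did not pass, with adjusted p of 0.645 and 0.823 by edgeR.

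Within 100 kb of the 9 genes the annotation held 35 other genes, of which 8 had counts enough to be tested. Beside Il2, both Il21 (96.8 kb away) and 4932438A13Rik (67.5 kb, log2 fold change -0.96, SE 0.14, edgeR, adjusted p = 0.00271) fell. Beside Il4, Kif3a (1.01 kb away, a kinesin gene) fell with a log2 fold change of -1.79 (SE 0.24, edgeR, adjusted p = 0.00178). Beside Csf2, the lincRNA 4933405E24Rik (34.0 kb away, minus strand) rose from 1.19, 8.01 and 0 normalized counts in Foxo1Ctrl to 61.7, 79.8 and 65.5 in Foxo1TKO, a log2 fold change of 4.14 (SE 0.72, edgeR, adjusted p = 0.00528). Without Foxo1Ctrl replicate 2, which held most of its Foxo1Ctrl counts, the log2 fold change was 5.53, and over the other tests, scalings and filters it ran from 3.31 to 5.15. This lincRNA and Csf2 thus rose together while Il3, which lies on the far side of Csf2 from it, had no count. Sept8 (-0.58), Rad50 (0.33), Mapkapk2 (0.68) and Ahcyl1 (0.33) did not pass.

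Among the called transcripts only Ifngas1 averaged at least 100 normalized counts over the 6 libraries, and the 3 genes with the most similar pattern to it were Bambi-ps1, Sntb1 and Zscan10. Their root mean square distance from it, on log2 CPM centred over 6 libraries, was 0.67, 0.79 and 0.84. All 3 were under 30 normalized counts in Foxo1TKO and above 200 in Foxo1Ctrl.

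Markers of other cells that could make these cytokines were counted as well, beside shares of 11.1% higher and 11.8% lower over all genes tested. Of 9 NK cell markers, 5 were tested and 2 rose (Nkg7 and Eomes, which activated T cells also express). The summed level of the list was 27100 to 36231 normalized counts in Foxo1TKO and 5607 to 11276 in Foxo1Ctrl, most of it Nkg7, while Ncr1 had at most 10.99, Tyrobp at most 10.7 and Klra4 at most 1.94 normalized counts and Klra8 was at 0. Klrb1c (13.95 to 66.9), Klre1 (10.3 to 23.6) and Gzma (152 to 895) were detected in all 6 libraries and did not pass. Of 8 mast cell and basophil markers, 3 were tested, Cpa3 (2.15) and Kit (2.29) rose and Hdc (-3.30) fell on the log2 scale. That list summed to 1676 to 3303 against 475 to 657 normalized counts, most of it Kit in every library. Mcpt4, Fcer1a and Cma1 were at 0. Ms4a2, too scarce to be tested, had 9.30, 6.14 and 10.7 normalized counts in Foxo1TKO and 0 in each Foxo1Ctrl library, and Mcpt8 had 17.2 in Foxo1TKO replicate 3 and 0 elsewhere. Of 10 B cell markers, 8 were tested and 4 fell, with sums of 188 to 246 against 632 to 722, and of 4 plasma cell markers 3 were tested and 2 fell (2887 to 3772 against 4432 to 5368). One of 6 dendritic cell markers rose, Itgax (7.91 on the log2 scale), with list sums of 554 to 631 against 153 to 265. Most of the Foxo1TKO sums was Itgax itself, at 350, 411 and 485 normalized counts against 1.19, 0 and 0.969 in Foxo1Ctrl. Zbtb46 (-0.48) and Xcr1 (0.44) did not pass. The 9 macrophage markers summed to 68.5 to 100.9 against 45.7 to 61.0, with C1qa and Mertk at 0, and the 5 neutrophil markers to 4.29 to 25.4 against 0 to 3.58. CD8 T cell markers summed to 91.2 to 145 against 144 to 161, Foxp3 of regulatory T cells stood at 6.44 to 14.9 against 15.5 to 27.4, and 5 erythroid markers summed to 133 to 234 against 161 to 268, none of these 3 lists holding a gene that passed. Of the 7 T cell markers, Cd28 fell and the other 6 did not pass. The part of such cells in the values of Csf2, Il2 and Ifngas1 was not tested.

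Scaling the libraries to the transcripts of the CD3 complex in place of TMM moved the median log2 fold change of all genes to 0.33, and then 2728 genes were higher and 938 lower, against 1525 and 1619. Relative to that median Il2 stood at -2.25, Ifng at 0.97, Ifngas1 at -7.64, Csf1 at -1.01 and Csf2 at 3.34, and the same 3 transcripts passed the test.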

How the data were processed

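RNA of 3 Foxo1TKO and 3 Foxo1Ctrl cultures of activated naive CD4 T cells was sequenced, and libraries were grouped by the genotype in their labels. The authors used STAR 2.7.6a for alignment (GRCm38, Ensembl release 101) and deposited RSEM 1.3.1 expected counts per gene, with TPM and effective length. They also deposited a normalized signal per gene, made with DESeq2 1.26.0 in R 3.6.3. Strandedness was not given in the sources used here, so overlapping antisense genes cannot be told apart.

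Expected counts were rounded. The 13691 genes that reached 10 counts in 3 or more libraries were tested with edgeR 4.0.16 (TMM, glmQLFit and glmQLFTest, prior count 1, genotype as the only term) in R 4.3.3, with Benjamini-Hochberg adjustment over all of them and a gene was called where its adjusted p was below 0.05 and its fold change above 1.5. Normalized counts are counts scaled by TMM to the mean library. Fold changes are fitted values. SE was derived from the F statistic. Library totals were 14783853 to 19675407, and 3 counts correspond to 0.152 to 0.203 CPM. GENCODE M21 (GRCm38) gave positions for 55141 of the 55487 identifiers, and RefSeq the promoter sequences.

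The 9 genes, the lists of related genes and the cell type markers were chosen with earlier results of these data known. Named genes were the 9, Foxo1, up to 4 genes per list and direction with the largest fold change among those called, receptor chains, tested genes within 100 kb, the markers, and the 3 genes closest in pattern to a called gene averaging 100 or more normalized counts. Other genes named to complete a count, and Gm12223 and Gm49751 as overlapping genes, were named after their values were seen. Some genes of the lists are counted but not reported here by name. Alternatives were DESeq2 1.42.0, limma-voom (limma 3.58.1), other scalings and filters, effective lengths, limma on log2 of the normalized signal, a replicate block and each library left out. Figures were drawn with matplotlib 3.10.9.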

Additional observations from a re-analysis of the deposited data

How the results depend on the processing

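No result reversed under any of the alternatives run, and the calls of Csf2 and Ifngas1 held in all of them. With 1 library left out, the genes called over the whole table ran from 1854 (without Foxo1TKO replicate 2) to 3321, with 2031 without Foxo1Ctrl replicate 1, and 2 to 4 of the 5 transcripts tested were called. The log2 fold change of Il2 then ran from -2.78 to -1.86, with its call lost without Foxo1TKO replicate 2, and that of Csf1 from -2.02 to -0.59, with a call gained without Foxo1TKO replicate 1. The side of the second principal component as a term, added after the data were seen, gave 4457 calls over all genes, a log2 fold change of 1.02 for Ifng, which then passed, and 5 receptor chains called in place of 2. DESeq2 called 3694 genes and the replicate block 3318. The replicate numbers share no stated litter or day, and the deviations of same-numbered libraries correlated at 0.43, 0.20 and -0.11, so the numbers were not taken to pair the samples. Under the replicate block the calls of the 5 transcripts did not change (Il2 -2.27, adjusted p = 0.0286, edgeR). Without a filter on low counts, Il4 (log2 fold change 0.17, adjusted p = 0.935), Il10 (-0.48, 0.747) and Il13 (1.33, 0.413) could be fitted among 23345 genes and did not pass (edgeR). Of the genes in the lists, Il22, Cish, Runx1 and Nfatc1 lost their calls under at least 1 alternative besides the omission of a library. The depth limits what can be said of Il3, Il4, Il10 and Il13, and with 3 libraries a genotype 1 library can decide a call near the threshold.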
